A study of Homo sapiens with 9 samples.

Results

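The microRNA and RNA interference machinery comprises the proteins that process and use short hairpin RNAs, and was taken as a fixed list of 10 genes: the Argonautes AGO1, AGO2, AGO3 and AGO4, the nucleases DICER1 and DROSHA, the DROSHA partner DGCR8, and the Argonaute partners TNRC6A, TNRC6B and TNRC6C. All 10 were found by name among the 58735 genes of the count table, and all 10 passed the filter on low counts, which left 14975 genes for testing. The list was set by function, with no measured value in its rule, but it was chosen with earlier results of these data known. RNA-seq libraries came from THP-1, an established human acute myeloid leukaemia line that carries the MLL-AF9 fusion, transduced with lentivirus made in 293T cells. The 3 groups, of 3 libraries each, carried shRNA-143 against NFATC2, shRNA-146 against NFATC2, or a non-targeting control shRNA (SHX2). Puromycin selection began 24 hours after transduction by spinoculation, and RNA was taken at 48 hours. Every library, the control included, thus came from transduced, puromycin-selected cells that carried an shRNA construct, and no library came from untransduced cells. The bulk libraries cannot tell fewer cells with a transcript apart from less of it per cell. The series calls the replicates biological without naming separate cultures, and the p-values therefore reflect no more than the spread among the 9 libraries, which may be technical.

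In the nucleus the Microprocessor, made of DROSHA and DGCR8, cuts hairpins out of primary microRNA transcripts. The hairpins are exported and trimmed by DICER1 to short duplexes, of which an Argonaute keeps a single strand as its guide. TNRC6 proteins bind Argonautes and recruit deadenylases to the paired mRNA, and AGO2 can also cut a fully paired target, which makes it the main effector of shRNA knockdown. A vector-borne shRNA usually enters this pathway after the DROSHA step.

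Libraries held 40047459 to 44669709 counts. NFATC2, the targeted transcription factor, had 1.49, 7.40 and 6.95 CPM with shRNA-143 and 2.59, 6.71 and 9.43 CPM with shRNA-146 in replicates 1, 2 and 3, against 12.7, 27.6 and 27.4 CPM in control, without overlap of the groups. CPM are counts relative to the TMM-scaled library total. All 11 THP-1 markers on the list were tested, with summed levels from 612 to 977 CPM, while the 3 T cell markers were at 0 in every library, the B cell markers summed to 2.17 to 3.10 CPM with MS4A1 at 0, and the epithelial markers to at most 0.137 CPM. Libraries numbered 1 stood apart from those numbered 2 and 3 in all groups. Libraries that share a number deviated alike, so each result is given without and with the replicate number as a block.

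Of the 10 genes, 8 lie in the longest of 5 equal length classes of tested genes and the other 2, AGO4 and DGCR8, in the class below, with deposited lengths from 7267 bases for AGO4 to 21157 bases for AGO3, against a median of 4550 over tested genes. Their counts ran from 88 for TNRC6C to 5847 for AGO2 in a single library. Per kilobase of gene length, AGO2 averaged 5.55 ± 0.695 CPM, DROSHA 5.41 ± 2.21 CPM and DICER1 5.25 ± 0.946 CPM in control (SD, n = 3 each). DGCR8, AGO1 and AGO4 followed at 3.01, 2.88 and 2.12 CPM per kilobase. TNRC6A, TNRC6B, TNRC6C and AGO3 came last at 0.803, 0.708, 0.588 and 0.508 CPM per kilobase. Among neighbours in this order, the control ranges failed to overlap only between DICER1 and DGCR8 and between AGO4 and TNRC6A. AGO2 and AGO3 stood first and last by mean, but AGO2 exceeded DROSHA in 1 of 3 control libraries, replicate 1, and AGO3 was below TNRC6C in 2 of 3.

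**Figure D1:**
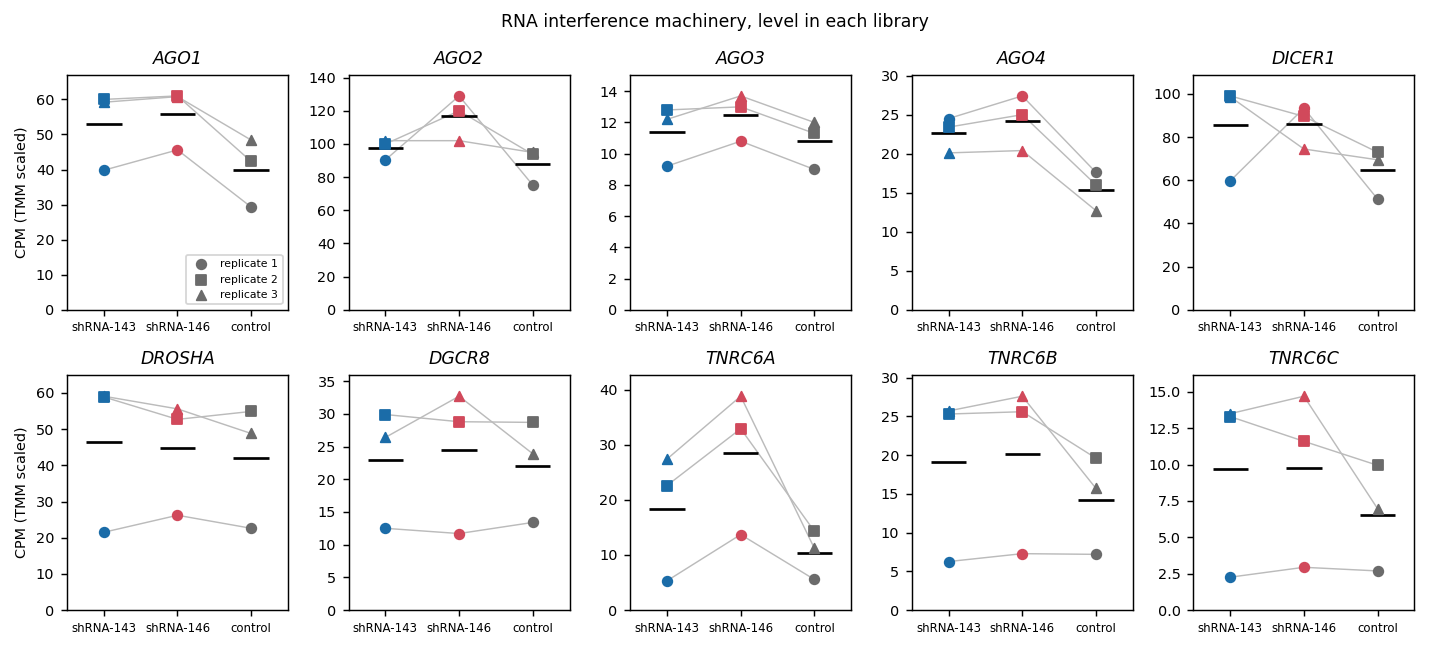
Level of each of the 10 genes in every library, in CPM after TMM scaling on an axis from 0, for shRNA-143, shRNA-146 and control. Symbols give the replicate number, grey lines join libraries that share it, and black bars are group means (n = 3). The AGO4 libraries of both shRNAs lie above all control libraries, and replicate 1 lies far below the other replicates for DROSHA, DGCR8 and the TNRC6 genes.

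AGO4, AGO1 and AGO3 stand side by side on the plus strand of chromosome 1 (hg38, 35808172 to 35857890, 35869808 to 35930528 and 35930718 to 36072500), with 11918 bases between AGO4 and AGO1 and 190 bases between AGO1 and AGO3. The promoters of AGO4, AGO1 and TNRC6A are shown because these genes passed the test with the block. Each is the 250 bases before the RefSeq start on the plus strand of GRCh38.p14, at chr1:35807766-35808015 for AGO4, chr1:35882959-35883208 for AGO1 and chr16:24729401-24729650 for TNRC6A. The AGO1 and TNRC6A windows lie inside the genes as the deposited annotation draws them, so a RefSeq start is not the deposited start. Capitals mark the letters GGAAA, the core of NFAT sites, on either strand (TTTCC on the other).
AGO4 promoter: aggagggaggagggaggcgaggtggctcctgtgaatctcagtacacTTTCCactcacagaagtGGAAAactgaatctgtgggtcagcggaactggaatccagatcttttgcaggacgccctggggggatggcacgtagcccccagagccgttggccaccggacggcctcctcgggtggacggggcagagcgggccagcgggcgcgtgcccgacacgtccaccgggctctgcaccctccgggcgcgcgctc
AGO1 promoter: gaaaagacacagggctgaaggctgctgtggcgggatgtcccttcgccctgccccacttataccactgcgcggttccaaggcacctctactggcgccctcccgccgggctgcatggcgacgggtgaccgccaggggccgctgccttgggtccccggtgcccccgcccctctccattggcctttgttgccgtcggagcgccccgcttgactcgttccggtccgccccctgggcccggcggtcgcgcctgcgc
TNRC6A promoter: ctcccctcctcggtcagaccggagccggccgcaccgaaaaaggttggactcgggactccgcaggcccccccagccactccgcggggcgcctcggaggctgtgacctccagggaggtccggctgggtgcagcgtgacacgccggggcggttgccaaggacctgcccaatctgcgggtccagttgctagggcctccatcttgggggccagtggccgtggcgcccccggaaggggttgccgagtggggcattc

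The AGO4 window held 2 GGAAA matches, and the AGO1 and TNRC6A windows held 0. The same letters occur on either strand in 56.0% of the 27305 RefSeq promoter windows of that length. The GC box letters GGGCGG, or CCGCCC on the other strand, occurred 2 times before AGO1, 1 time before TNRC6A and 0 times before AGO4, against 42.3% of windows with a match. The CCAAT letters, or ATTGG, occurred 1 time each before AGO1 and TNRC6A and 0 times before AGO4, against 33.0% of windows. The E-box letters CACGTG, which read the same on both strands, were in 0 of these 3 windows, against 6.49% of windows. These are letter matches, not sites of binding, and 9 of the 10 genes had an entry in the RefSeq promoter table.

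The comparison of each NFATC2 shRNA with control asks how far the pathway's transcripts differed once NFATC2 was lowered. All 10 genes had a positive log2 fold change with either shRNA and in their mean, with or without the block. Genes of that length shared the direction often: for the mean of both shRNAs, 51.0% of tested genes lay above 0 with the block, but 73.2% of the longest class did, with a median log2 fold change of 0.19 there. The 10 genes had a median of 0.39, against 0.01 over all tested genes. With the block and a correction for gene length the median of the 10 was 0.15, with 7 above 0 and 3 below.

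Without the block 0 of the 10 genes passed edgeR's quasi-likelihood test at a Benjamini-Hochberg adjusted p under 0.05 in the mean of both shRNAs, where 0.0334% of tested genes passed, and 1 had an unadjusted p under 0.05, as did 9.34% of tested genes. With shRNA-143 alone 0 passed, against 0.0467% of tested genes, and 1 had an unadjusted p under 0.05, as did 6.8% of tested genes. With shRNA-146 alone 0 passed, against 0.0334% of tested genes, and 3 had an unadjusted p under 0.05, as did 8.81% of tested genes. DESeq2 without the block also passed 0 of the 10 in each of these comparisons. NFATC2, the targeted gene, did not pass in edgeR without the block either. It stood at -1.97 ± 0.51 in the mean of both shRNAs (edgeR adjusted p = 0.325), and at -2.12 ± 0.19 with the block (adjusted p = 0.000575). With the block, AGO1, AGO4 and TNRC6A rose in the mean of both shRNAs, 3 of 10 genes against 2.98% of all tested genes and 5.68% of the longest class called higher. AGO4 alone rose with shRNA-143, against 1.6% of tested genes, and AGO4 and TNRC6A rose with shRNA-146, against 2.46%. At an unadjusted p under 0.05 the fit with the block held 5 of the 10 genes in the mean of both shRNAs, 3 with shRNA-143 and 6 with shRNA-146, against 25.6%, 20.7% and 23.5% of tested genes. None of the 10 genes fell in these comparisons with edgeR or DESeq2, with or without the block. The authors' deposited tables listed all 10 genes above 0 with either shRNA and 0 of them at an adjusted p under 0.05.

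**Figure D2:**
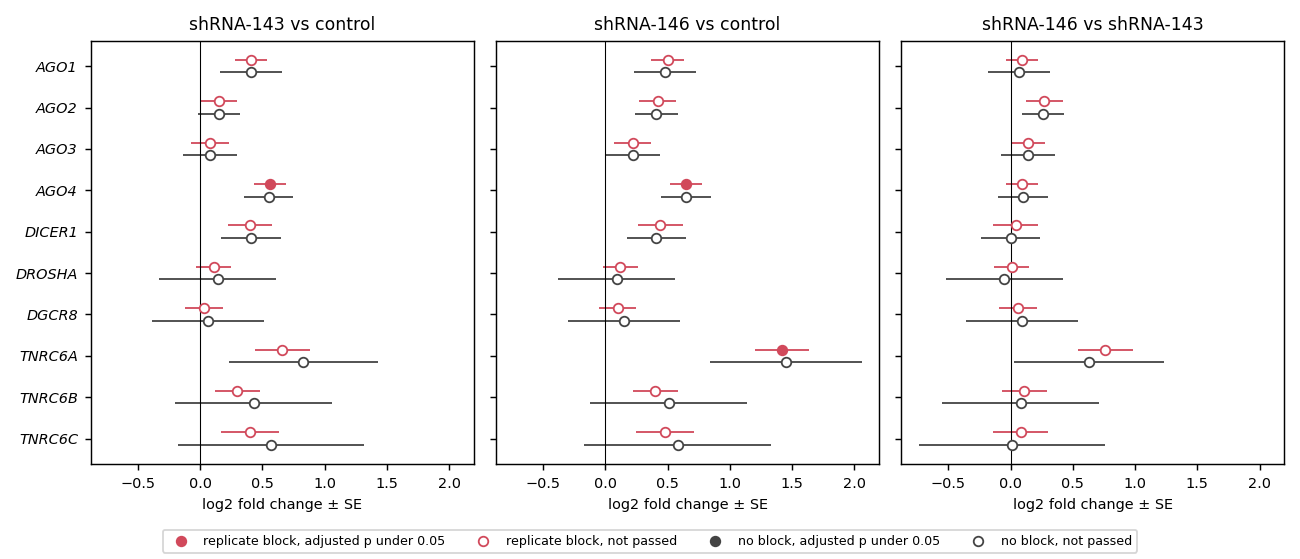
Log2 fold change ± SE of the 10 genes from edgeR, with the replicate number as a block (red) and without it (grey), for each shRNA against control and for shRNA-146 against shRNA-143. Filled points passed an adjusted p under 0.05: AGO4 with both shRNAs and TNRC6A with shRNA-146, all in the fit with the block, which has the shorter error bars for DROSHA, DGCR8 and the TNRC6 genes.

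AGO4, a small RNA-binding Argonaute that lacks target-cutting activity, was the only one of the 10 genes whose control libraries lay apart from all 6 shRNA libraries. It had 24.5, 23.4 and 20.1 CPM with shRNA-143 and 27.4, 25.0 and 20.4 CPM with shRNA-146, against 17.6, 16.0 and 12.7 CPM in control. Such separation upward was seen in 3.08% of tested genes. Within a replicate number the excess over control was even, from 0.48 to 0.68 on the log2 scale over the 6 pairs. For the mean of both shRNAs the log2 fold change was 0.61 ± 0.12 with the block (edgeR adjusted p = 0.0176), and 0.60 ± 0.18 without it (adjusted p = 0.375). With the block AGO4 rose by 0.56 ± 0.13 with shRNA-143 (adjusted p = 0.0449) and by 0.65 ± 0.13 with shRNA-146 (adjusted p = 0.0243). The call with shRNA-143 was kept without shRNA-146 replicate 1 or 3, and was lost without any of the other 7 libraries (edgeR adjusted p from 0.0989 to 0.293) and with the length correction (0.0754). The call with shRNA-146 was kept without replicate 1 of either shRNA, and was lost without any of the other 7 libraries (0.0505 to 0.129). The adjusted p for the mean lay between 0.0653 and 0.129 when a control library was left out, and was 0.0788 without shRNA-143 replicate 2 and 0.0726 without shRNA-143 replicate 3. With the block the log2 fold change stayed between 0.58 and 0.63 over all 9 omissions. Without the block it ranged from 0.480, without control replicate 3, to 0.706, without control replicate 1. AGO4 shares no exon bases with another gene in the annotation used here. It was the only one of the 10 with a higher level in replicate 1 than in replicates 2 and 3 of every group.

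AGO1, another Argonaute of the microRNA pathway, had 39.8, 60.0 and 59.2 CPM with shRNA-143 and 45.6, 61.0 and 60.8 CPM with shRNA-146, against 29.3, 42.3 and 48.4 CPM in control. The groups overlapped only because replicate 1 was the lowest library of each group: within each number both shRNAs were higher, by 0.29 to 0.64 on the log2 scale. For the mean of both shRNAs AGO1 rose by 0.45 ± 0.11 with the block (edgeR adjusted p = 0.0434), and stood at 0.44 ± 0.22 without it (adjusted p = 0.594). That call was lost with adjusted p-values of 0.129, 0.208 and 0.132 without control replicates 1, 2 and 3, of 0.0611, 0.159 and 0.131 without shRNA-143 replicates 1, 2 and 3, and of 0.0871 without shRNA-146 replicate 2. With the length correction AGO1 stood at 0.24 ± 0.12 (adjusted p = 0.267). With all 9 libraries and the block in edgeR, neither shRNA alone passed, at 0.41 ± 0.13 for shRNA-143 (adjusted p = 0.111) and 0.50 ± 0.13 for shRNA-146 (adjusted p = 0.0542). AGO1 passed with shRNA-143 when the block was combined with library size scaling (0.0474) or shRNA-146 replicate 1 was left out (0.0222). It passed with shRNA-146 in those settings (0.0202 and 0.0366), in DESeq2 with the block (0.0163), and with the block and no replicate 1 libraries (0.04).

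AGO2, the Argonaute that cuts fully paired targets, lies on chromosome 8 (hg38, 140520156 to 140635619, minus strand). It had 90.4, 100 and 102 CPM with shRNA-143 and 129, 120 and 102 CPM with shRNA-146, against 75.2, 93.7 and 94.9 CPM in control. The shRNA-146 libraries lay above all control libraries and did not overlap with those of shRNA-143, while shRNA-143 overlapped with control. The gap between the constructs was a near tie, at 6.45 CPM per kilobase in shRNA-146 replicate 3 and 6.44 in shRNA-143 replicate 3. AGO2 did not pass in edgeR with or without the block, with 0.28 ± 0.13 for the mean of both shRNAs with the block (edgeR adjusted p = 0.190) and 0.42 ± 0.15 for shRNA-146 (adjusted p = 0.119). With library size scaling and the block it passed with shRNA-146, at 0.55 ± 0.12 (adjusted p = 0.0356). Its excess over control within a number was highest in replicate 1 of shRNA-146, at 0.78, and lowest at 0.10 on the log2 scale. AGO3, which lies next to AGO1, was the least abundant of the 4 Argonautes. It had 9.20, 12.8 and 12.2 CPM with shRNA-143 and 10.8, 13.0 and 13.7 CPM with shRNA-146, against 8.99, 11.3 and 12 CPM in control. The groups overlapped, and the mean of both shRNAs stood at 0.15 ± 0.13 with the block (adjusted p = 0.479). All 4 Argonautes and DICER1 were higher than control in 6 of 6 pairs of a common number, as were 12.4% of all tested genes and 21.6% of the longest class.

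DICER1, the nuclease that trims hairpins in the cytoplasm, had 59.7, 99.1 and 98.7 CPM with shRNA-143 and 93.4, 89.6 and 74.5 CPM with shRNA-146, against 51.3, 73.0 and 69.5 CPM in control. The shRNA-146 libraries lay above those of control, as did those of AGO2 and AGO4, 3 of 10 genes against 7.25% of tested genes. With shRNA-143 AGO4 alone was so separated, 1 of 10 genes against 7.09% of tested genes. The DICER1 libraries ran in opposite order within the constructs, with replicate 1 lowest for shRNA-143 and highest for shRNA-146. With all 9 libraries DICER1 did not pass, at 0.42 ± 0.16 for the mean of both shRNAs with the block (edgeR adjusted p = 0.134) and 0.41 ± 0.21 without it (adjusted p = 0.600). With the block it passed in the mean of both shRNAs without shRNA-146 replicate 3, and with shRNA-143 without shRNA-146 replicate 1.

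For the mean of both shRNAs the Microprocessor genes had the smallest log2 fold changes of the 10, while with shRNA-143 that of AGO3, 0.08 with the block, was below that of DROSHA, 0.11. DROSHA, the nuclease that cuts primary transcripts, had 21.5, 58.9 and 59.1 CPM with shRNA-143 and 26.2, 52.7 and 55.6 CPM with shRNA-146, against 22.6, 54.9 and 48.8 CPM in control. DGCR8, its RNA-binding partner, had 12.5, 29.9 and 26.4 CPM with shRNA-143 and 11.7, 28.8 and 32.7 CPM with shRNA-146, against 13.4, 28.7 and 23.9 CPM in control. For both genes the groups overlapped and replicate 1 was the lowest library of every group. The means of both shRNAs stood at 0.11 ± 0.12 for DROSHA (edgeR adjusted p = 0.594) and 0.06 ± 0.13 for DGCR8 (adjusted p = 0.798) with the block, and the length correction turned both below 0, at -0.01 and -0.04. The log2 ratio of DROSHA to DGCR8 per length averaged 0.884 ± 0.191 with shRNA-143, 0.845 ± 0.205 with shRNA-146 and 0.818 ± 0.138 in control (SD, n = 3 each), a difference of 0.0465 between shRNA and control libraries (exact permutation test, 2-sided, p = 0.762). DGCR8 shares 12 bases with TRMT2A on the opposite strand, and the sources used here do not state whether counting used strand.

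TNRC6A, a scaffold that links Argonautes to the deadenylases, had the largest log2 fold change of the 10 genes against control. It had 5.31, 22.6 and 27.4 CPM with shRNA-143 and 13.7, 32.9 and 38.8 CPM with shRNA-146, against 5.55, 14.3 and 11.2 CPM in control. Only replicate 1 made the groups overlap, since all 4 shRNA libraries numbered 2 and 3 lay above every control library. The ratio to control of the same number was 0.957, 1.57 and 2.44 with shRNA-143 and 2.47, 2.29 and 3.45 with shRNA-146. TNRC6A rose with shRNA-146 by 1.42 ± 0.22 on the log2 scale with the block, or 2.67-fold (edgeR adjusted p = 0.00881), and stood at 1.45 ± 0.61 without it (adjusted p = 0.541). With shRNA-143 it stood at 0.66 ± 0.22 with the block (adjusted p = 0.133). For the mean of both shRNAs it rose by 1.04 ± 0.20 with the block (adjusted p = 0.0176), with 1.14 ± 0.55 without it (adjusted p = 0.572). The call for the mean was lost without control replicate 2 (adjusted p = 0.108), control replicate 3 (0.156) or shRNA-143 replicate 2 (0.0555), and that for shRNA-146 without control replicate 2 (0.0768) or control replicate 3 (0.0648). With the length correction the mean stood at 0.83 ± 0.17 (adjusted p = 0.0233). TNRC6A shares no exon bases with another gene in the annotation used here.

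TNRC6B and TNRC6C, paralogs of TNRC6A with the same role, did not pass with all 9 libraries in either fit. TNRC6B had 6.26, 25.3 and 25.7 CPM with shRNA-143 and 7.28, 25.6 and 27.6 CPM with shRNA-146, against 7.19, 19.6 and 15.7 CPM in control. TNRC6C had 2.26, 13.3 and 13.5 CPM with shRNA-143 and 2.94, 11.6 and 14.7 CPM with shRNA-146, against 2.69, 9.95 and 6.97 CPM in control. For both genes the shRNA libraries numbered 2 and 3 lay above every control library and replicate 1 was low everywhere. The means of both shRNAs stood at 0.35 ± 0.16 for TNRC6B (edgeR adjusted p = 0.196) and 0.44 ± 0.20 for TNRC6C (adjusted p = 0.200) with the block. Without control replicate 3 they stood at 0.15 for both genes. TNRC6C overlaps TNRC6C-AS1 on the opposite strand by 1438 bases, and the counts of that antisense gene came to 15.8% of those of TNRC6C, which leaves the TNRC6C value uncertain.

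Replicate 1 lay below replicates 2 and 3 in every group for 7 of the 10 genes. The share of all tested genes with that order was not computed, so the count cannot be called high or low. On average over the groups, DROSHA, DGCR8, TNRC6A, TNRC6B and TNRC6C were in replicate 1 at least 1 log2 unit below the mean of replicates 2 and 3. The same held for 15.4% of tested genes. AGO1 and AGO3 were lower by less, at 64.7% to 74.8% and 73.7% to 81.0% of that mean over the groups. TNRC6C was lowest, with replicate 1 at 16.9% of the mean of replicates 2 and 3 with shRNA-143, 22.4% with shRNA-146 and 31.8% in control. TNRC6B was at 24.5%, 27.4% and 40.8%, and TNRC6A at 21.2%, 38.2% and 43.4%, in the same order of groups. AGO4 went the other way, at 112%, 121% and 122%. Over all tested genes the median log2 difference of replicate 1 was 0.23 in the shortest length class and -0.35 in the longest, and the part of gene length in the low levels of these 5 genes was not tested.

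**Figure D3:**
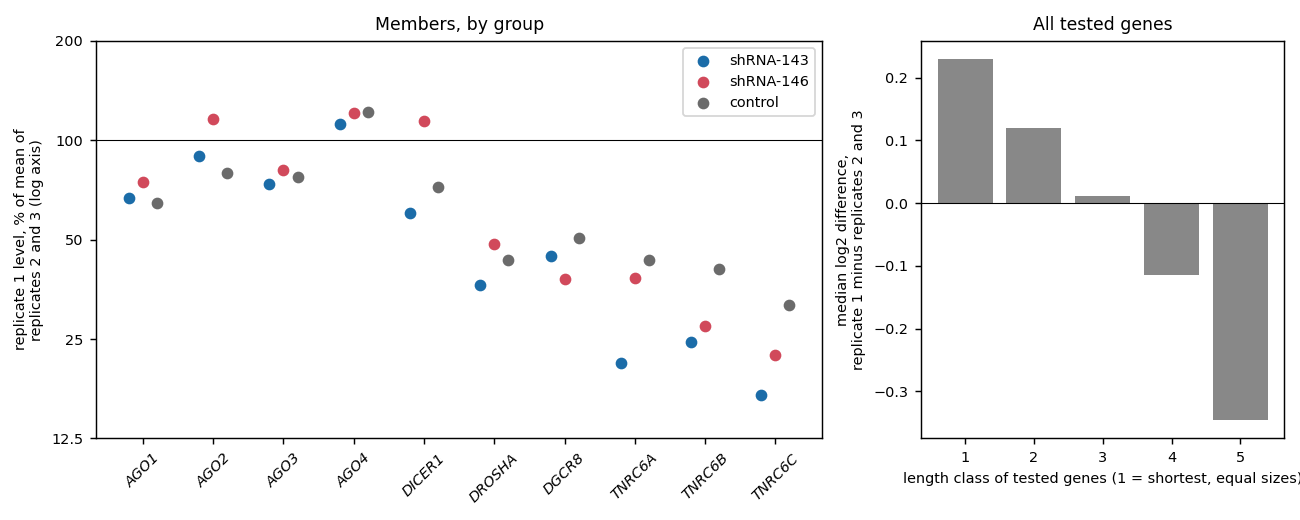
Left, level of each of the 10 genes in replicate 1 as a percentage of the mean of replicates 2 and 3 of the same group (log axis, 1 point per group). Right, median log2 difference of replicate 1 from replicates 2 and 3 in 5 equal length classes of all tested genes. The TNRC6 genes, DROSHA and DGCR8 lie at or below 50.7%, AGO4 lies above 100%, and the median falls with length from 0.23 to -0.35.

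Without all 3 libraries numbered 1, an alternative chosen after seeing the data, AGO1, AGO4, TNRC6A, TNRC6B and TNRC6C passed in the mean of both shRNAs even without the block, 5 of the 10 genes against 5.2% of tested genes called higher. TNRC6A then stood at 1.23 ± 0.16 (edgeR adjusted p = 0.00281), TNRC6B at 0.57 ± 0.14 (adjusted p = 0.0303), TNRC6C at 0.65 ± 0.18 (adjusted p = 0.0437), AGO4 at 0.63 ± 0.16 (adjusted p = 0.0323) and AGO1 at 0.42 ± 0.12 (adjusted p = 0.0489). With 2 libraries per group, TNRC6A alone passed with shRNA-143, against 2.04% of tested genes called higher, and TNRC6A and TNRC6B with shRNA-146, against 3.41%. The block added DICER1 to the 5 genes, at 0.35 ± 0.11 (adjusted p = 0.0448), where 10.1% of tested genes were called higher. The count over all tested genes grew as well, to 1496 without the block, against 5 with all 9 libraries.

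The comparison of the constructs with each other asks whether they acted alike on the pathway. In shRNA-146 against shRNA-143, 0 of the 10 genes passed without the block, against 0.0467% of tested genes, and DESeq2 passed 0. An unadjusted p under 0.05 was reached by 0 of the 10, against 3.75% of tested genes. With the block 0 passed, against 1.2% of tested genes, and 1 reached an unadjusted p under 0.05, against 10.4% of tested genes. That gene was TNRC6A, at 0.76 ± 0.22 (edgeR adjusted p = 0.168), which passed only with DESeq2 and the block (adjusted p = 0.0419). AGO2 was the gene of the 10 whose shRNA-146 libraries all lay above those of shRNA-143, against 4.49% of tested genes, with a log2 fold change of 0.27 ± 0.15 (adjusted p = 0.582). That separation rested on a near tie in replicate 3, at 6.45 CPM per kilobase with shRNA-146 and 6.44 with shRNA-143. The other 8 genes lay between 0.01 and 0.14 with the block. Since both constructs were set against the same 3 control libraries, their changes against control are not independent of each other.

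Shares within a family compare transcripts inside a library and do not depend on its scaling. TNRC6A made up 44.3%, 41.5% and 45.9% of the summed TNRC6 level per length with shRNA-143 and 62.7%, 52.2% and 52.6% with shRNA-146, against 41.6%, 37.2% and 38.1% in control. The shRNA-146 libraries were the highest 3 of the 9, and shRNA-143 replicate 2 lay just under the highest control library. The mean share was 10.9 percentage points above control over the 6 shRNA libraries (exact permutation test, 2-sided, p = 0.0476), where 84 arrangements allow no p below 0.0238. After adjustment over the 8 measures computed, the exact permutation test did not pass (Benjamini-Hochberg p = 0.127). Replicate 1 of shRNA-146 had the highest TNRC6A share of the 9 libraries, at a TNRC6A level of 13.7 CPM.

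TNRC6B made up 30.6% ± 2.99 with shRNA-143 and 24.0% ± 2.35 with shRNA-146, against 34.0% ± 1.09 in control (SD, n = 3 each), and the TNRC6C share was 25.5% ± 3.32 with shRNA-143 and 20.1% ± 3.92 with shRNA-146, where the control libraries held 23.5%, 30% and 27.5%. Among the Argonautes AGO2 held the largest share, 45.2% ± 1.31 with shRNA-143 and 48.1% ± 3.44 with shRNA-146, against 50.1% ± 1.01 in control. AGO4 held 23.0% ± 3.82 with shRNA-143 and 21.7% ± 2.18 with shRNA-146, against 19.5% ± 5.08 in control. Leaving out single libraries moved the AGO4 difference between 0.485 percentage points, without control replicate 3, and 5.53, without control replicate 1, and the TNRC6C difference between -5.92, without control replicate 1, and -2.66, without control replicate 2. The AGO3 share differed from control by -0.673 percentage points (exact permutation p = 0.0476). None of the 8 measures passed after adjustment, and permutation within replicate numbers cannot give a p below 0.0741.

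**Figure D4:**
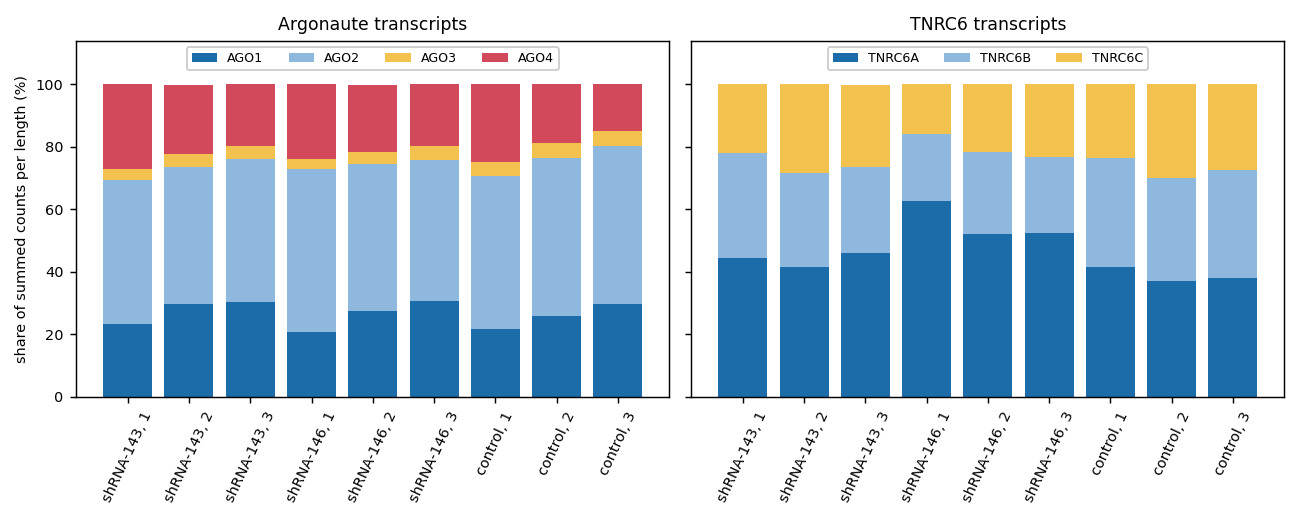
Share of each gene in the summed Argonaute level (left) and the summed TNRC6 level (right) of every library, in percent of counts per gene length, with shRNA-143, shRNA-146 and control replicates 1 to 3 from left to right. The TNRC6A share is 52.2% to 62.7% with shRNA-146, 41.5% to 45.9% with shRNA-143 and 37.2% to 41.6% in control, and the AGO2 share is the largest Argonaute share in all 9 libraries.

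Over the 9 libraries DROSHA, DGCR8 and the TNRC6 genes shared a pattern, given as a description since the libraries share numbers and groups. All of them were low in replicate 1 of every group, and the r values include that difference. TNRC6B and TNRC6C moved nearly as 1 gene (Pearson r = 0.997 on log2 CPM), and DROSHA followed DGCR8 (r = 0.967) and TNRC6C (r = 0.980). AGO4 did not go with them, at r = -0.253 with DROSHA and -0.273 with DGCR8. AGO1 and AGO3, which are neighbours on the chromosome, had r = 0.927. AGO3 came about as close to genes of other chromosomes, TNRC6A (r = 0.946), TNRC6B (0.912) and TNRC6C (0.91). AGO1 and AGO4, also neighbours, had r = 0.257. Of the other 14974 tested genes, those most like AGO4 were USP33 (r = 0.981), EVI5 (0.976) and LINC01138 (0.972). Those most like TNRC6A were MTF1 (0.990), SYK (0.990) and MYOF (0.986), and those most like AGO1 were AFAP1 (0.978), LINC00910 (0.969) and MNS1 (0.967).

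The other genes of the pathway, taken from lists by role, moved in few cases, beside 2.98% of tested genes called higher and 2.75% called lower with the block. None passed in edgeR with all 9 libraries and no block, while DESeq2 without the block passed HSP90AB1 (adjusted p = 0.00282), TSN (0.0387) and LIN28B (0.0396) among the genes named here. For the mean of both shRNAs with the block, 0 of 16 Microprocessor cofactors rose and 1 fell, with a median log2 fold change of -0.05. The gene that fell was ERH, a small protein that binds DGCR8 dimers, by 0.51 ± 0.13 (edgeR adjusted p = 0.0431). ERH passed with neither shRNA alone (adjusted p = 0.109 with shRNA-143 and 0.0651 with shRNA-146). Of 6 genes of export and dicing 0 rose and 1 fell. That gene was RAN, the GTPase that works with the hairpin exporter XPO5. It had 853, 534 and 531 CPM with shRNA-143 and 1551, 872 and 805 CPM with shRNA-146, against 1590, 995 and 1297 CPM in control. RAN fell by 0.67 ± 0.13 in the mean of both shRNAs (adjusted p = 0.0162) and by 1.04 ± 0.15 with shRNA-143 (adjusted p = 0.00679), and stood at -0.31 ± 0.15 with shRNA-146 (adjusted p = 0.239).

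Of 16 genes of Argonaute loading and activity 1 rose and 2 fell, with a median of -0.06. TSN, translin, a subunit of the nuclease C3PO that removes the discarded strand, had 163, 113 and 115 CPM with shRNA-143 and 209, 132 and 116 CPM with shRNA-146, against 308, 226 and 267 CPM in control. The groups did not overlap, and TSN fell by 0.95 ± 0.12 with the block (edgeR adjusted p = 0.00423). HSP90AB1, a chaperone that opens Argonautes for loading, fell by 0.65 ± 0.12 in the mean of both shRNAs (adjusted p = 0.0138), with 1467, 1866 and 1836 CPM with shRNA-143 and 3197, 3047 and 3126 CPM with shRNA-146, against 3417, 3667 and 3798 CPM in control. With the block HSP90AB1 stood at -1.08 ± 0.14 with shRNA-143 (adjusted p = 0.00385) and at -0.21 ± 0.14 with shRNA-146 (adjusted p = 0.379). MOV10, a helicase that binds Argonautes, rose by 0.87 ± 0.17 (adjusted p = 0.0168), and was higher than control in 6 of 6 pairs of a common number. ERH, RAN and HSP90AB1 have processed pseudogenes of near-identical sequence, which makes their counts uncertain.

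Of 25 deadenylation, decapping and decay genes, which act after TNRC6 proteins, 0 passed with edgeR and the block, with 6 at an unadjusted p under 0.05 and a median of 0.17. Of 13 tested genes of microRNA tailing and turnover 1 rose, LIN28B, which binds let-7 precursors and blocks their processing. LIN28B had 133, 118 and 133 CPM with shRNA-143 and 186, 124 and 126 CPM with shRNA-146, against 79.7, 87.0 and 91.0 CPM in control. The groups did not overlap, and LIN28B rose by 0.65 ± 0.14 in the mean of both shRNAs with the block (edgeR adjusted p = 0.0273). Of the constructs alone, LIN28B passed with shRNA-146 (adjusted p = 0.0315) and not with shRNA-143 (adjusted p = 0.0814). Its paralog LIN28A had 1 count in all 9 libraries. Of 4 PIWI genes, the germline relatives of Argonautes, only PIWIL4 had counts enough for a test, and it stood at -0.03.

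**Figure D5:**
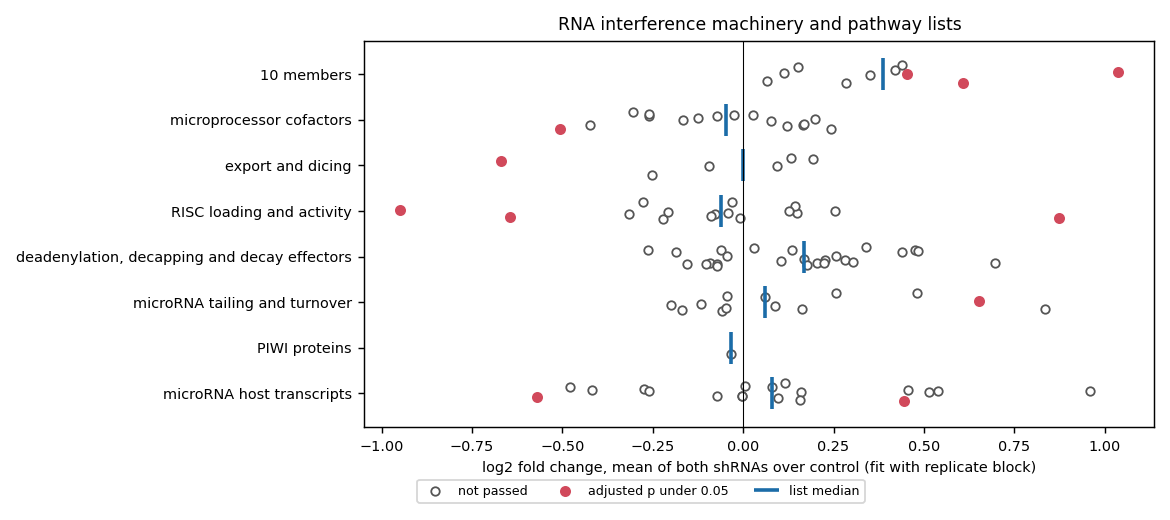
Log2 fold change of the mean of both shRNAs over control for the 10 genes and the genes of each pathway list, from edgeR with the replicate block. Filled red points passed an adjusted p under 0.05, and blue bars are list medians. The median of the 10 genes is 0.39, and those of the other lists lie between -0.06 and 0.17. The lists are not matched for gene length, and the median of the longest length class of tested genes is 0.19. With the length correction the median of the 10 genes is 0.15, and list medians were not computed in that fit.

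Mature microRNAs are not measured in polyadenylated RNA, but some are cut from longer transcripts that are. Of 28 such host transcripts on the list 19 were tested, 1 rose and 1 fell with the block, with a median of 0.08. DLEU2, the host of miR-15a and miR-16-1, had 13.6, 7.77 and 11.5 CPM with shRNA-143 and 17.4, 9.66 and 11.5 CPM with shRNA-146, against 21.5, 13.9 and 16.9 CPM in control, and fell by 0.57 ± 0.13 (edgeR adjusted p = 0.0299). PANK3, a pantothenate kinase gene with miR-103a-1 in an intron, rose by 0.44 ± 0.11 (adjusted p = 0.0467). Both values are for the mean of both shRNAs. PANK3 passed with neither shRNA alone (adjusted p = 0.0758 with shRNA-143 and 0.0885 with shRNA-146). DLEU2 passed with shRNA-143 (0.0365) and not with shRNA-146 (0.101). The mature sequences of these hosts, from RefSeq, are shown because the seeds of all 3 hold the letters GCAGCA, with the seed, bases 2 to 8, in capitals.
hsa-miR-15a-5p: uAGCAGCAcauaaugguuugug
hsa-miR-16-5p: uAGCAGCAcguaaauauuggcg
hsa-miR-103a-3p: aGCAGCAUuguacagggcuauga

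The first 2 share the seed AGCAGCA and lie in DLEU2 on chromosome 13. The same seed is in miR-15b-5p from SMC4, whose level stood at 0.51 with the block and did not pass (edgeR adjusted p = 0.174). In miR-103a-3p, from chromosome 5, the same 7 letters begin at base 1 in place of base 2. Of the hosts, DLEU2 was lower and PANK3 higher than control with the block, and the levels of the mature microRNAs were not measured. The calls of all 8 genes named from the pathway lists, ERH, RAN, TSN, HSP90AB1, MOV10, LIN28B, DLEU2 and PANK3, were lost in the fit with the block without control replicate 2, at edgeR adjusted p-values from 0.0598 for TSN to 0.184 for PANK3. Without control replicate 3 TSN alone passed (adjusted p = 0.0434), without control replicate 1 TSN and RAN (0.0284 and 0.0486), and without replicate 2 or replicate 3 of shRNA-143 TSN and MOV10. The calls of DLEU2, ERH and PANK3 were lost without shRNA-143 replicate 1 (0.0506, 0.0644 and 0.0783), and those of DLEU2 and PANK3 without shRNA-146 replicate 2 (0.0663 and 0.0941). The length correction ended the calls of ERH (0.13) and PANK3 (0.209). All 8 genes kept their direction in each of these fits.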

How the data were processed

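Polyadenylated RNA of 9 THP-1 libraries was analysed. The authors deposited raw counts per gene, and, per the file headers, tables of each shRNA against control with normalized counts (a signal divided by 1 factor per library), FPKM, log2 fold changes and p-values. Tools listed in the submitters' processing notes are STAR 2.5, fastp, featureCounts and DESeq2, with build hg38. The deposited counts were tested here with edgeR 4.0.16 (filterByExpr, TMM, robust quasi-likelihood fit) on R 4.3.3, all 9 libraries in a single fit of 3 groups, with Benjamini-Hochberg adjustment over 14975 genes. Deposited FPKM and signal values were not used. DESeq2 1.42.0 was an alternative.

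The labels do not say what a replicate number shares. All 9 pairs of libraries with a common number had correlated deviations from their group means (r 0.252 to 0.758, criterion 0.1), and 9 of 9 libraries matched their own number best, so the number was also fitted as a block. For the length correction, each gene's log2 CPM was taken relative to its mean over the libraries. The trend of these values on log2 gene length was fitted in each library and entered as an offset. The correction thus also takes out a length trend that the shRNA libraries share.

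The 10 genes and the pathway lists were chosen with earlier results of these data known. List genes are named if they passed in the mean of both shRNAs with the block. The fit was tested on simulated data.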

Additional observations from a re-analysis of the deposited data

Results flagged for a closer look

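In 5 genes of the pathway lists the effects of the constructs differed in the fit with the replicate block (edgeR, Benjamini-Hochberg adjusted over all genes), as log2 fold changes of shRNA-146 against shRNA-143, against 1.2% of tested genes with such a difference, and none of the 5 passed in edgeR with all 9 libraries and no block. HSP90AB1 passed in DESeq2 without the block (adjusted p = 0.000217), and ERI1 and CTDSP2 in edgeR without all replicate 1 libraries and no block (0.0128 and 0.0241). RAN differed by 0.73 (adjusted p = 0.0445) and HSP90AB1 by 0.87 (adjusted p = 0.0136). Both were lower with shRNA-143: HSP90AB1 had 3197, 3047 and 3126 CPM with shRNA-146, against 1467, 1866 and 1836 CPM with shRNA-143, without overlap. The other 3 were named after their values were seen. ERI1, an exonuclease that trims small RNA ends, differed by -0.76 (adjusted p = 0.0422), with 58.3, 35.7 and 29.1 CPM with shRNA-146, against 83.0, 60.1 and 59.6 CPM with shRNA-143. TRIM71, a let-7 target that acts with Argonautes, differed by 0.65 (adjusted p = 0.0431), with 31.3, 36.9 and 45.2 CPM with shRNA-146, against 22.4, 21.1 and 28.6 CPM with shRNA-143. CTDSP2, the host of miR-26a-2, differed by 0.70 (adjusted p = 0.0205), with 144, 127 and 118 CPM with shRNA-146, against 95.1, 74.9 and 70.6 CPM with shRNA-143. In the fit with the block all 5 calls were lost without any 1 of the shRNA-143 libraries (edgeR adjusted p from 0.084 to 0.449), without shRNA-146 replicate 2 (0.0553 to 0.264) and without control replicate 2 (0.0506 to 0.131). The cause of these differences was not tested.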

How the results depend on the processing

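Without the block, 0 of the 10 genes passed under library size or median-of-ratios scaling, with no filter on low counts, with DESeq2, or with any single library left out. Over all genes, library size scaling gave 16 calls with shRNA-143 and 2 with shRNA-146, median-of-ratios scaling 3 with shRNA-146, and DESeq2 gave 198 for the mean of both shRNAs, 141 with shRNA-143, 157 with shRNA-146 and 89 between constructs. Library size scaling moved the median of all genes to 0.15 for the mean of both shRNAs and to 0.12 with the block.

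With the replicate block, 3 of the 10 genes passed in the mean of both shRNAs, 1 with shRNA-143 and 2 with shRNA-146, among 859, 474, 662 and, between constructs, 179 genes. The block with library size scaling passed 3, 2 and 4 of the 10, among 858, 414, 835 and 186 genes. The block with the length correction passed 2, 0 and 2, among 660, 412, 489 and 210 genes. DESeq2 with the block passed 3, 1 and 3, and 1 between constructs, among 1618, 1011, 1400 and 370 genes. Without all replicate 1 libraries 5, 1 and 2 of the 10 passed, among 1496, 586, 918 and 160 genes, and with the block as well 6, 4 and 4, among 2901, 1577, 2113 and 319 genes. The last 3 settings were chosen after seeing the data.

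The block with the length correction turned AGO3 to -0.12 for the mean of both shRNAs, -0.156 with shRNA-143 and -0.084 with shRNA-146, DROSHA to -0.0088, -0.0031 and -0.0145, DGCR8 to -0.042, -0.064 and -0.0200, and AGO2 with shRNA-143 to -0.056. Between constructs DROSHA turned to 0.0106 with the block, 0.0489 with library size scaling besides and 0.000438 with DESeq2 and the block. DICER1 turned there to -0.0107 with median-of-ratios scaling, -0.0042 with no filter, -0.0108 with DESeq2, -0.0076 with the block and length correction, and without all replicate 1 libraries to -0.274 and, with the block, -0.28. TNRC6C turned to -0.0015 with median-of-ratios scaling or DESeq2, and to -0.029 and -0.027 without all replicate 1 libraries. The cause of these turns was not tested, and none of these values passed.

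Leaving out single libraries, with and without the block, gave 0 to 4 of the 10 genes for the mean of both shRNAs, 0 to 3 with shRNA-143 and 0 to 3 with shRNA-146, among 0 to 3060, 1 to 2104 and 0 to 1724 genes, and 0 to 339 genes between constructs. The lowest counts with the block came without control replicate 2, control replicate 3 or shRNA-143 replicate 2, with 0 of the 10 for the mean of both shRNAs. DGCR8 ranged from -0.153 to 0.352 for the mean, -0.198 to 0.355 with shRNA-143 and -0.118 to 0.483 with shRNA-146, DROSHA from -0.183 to 0.365, -0.158 to 0.486 and -0.209 to 0.364, and AGO3 with shRNA-143 from -0.029 to 0.216. Between constructs AGO1 ranged from -0.095 to 0.200, DGCR8 from -0.205 to 0.422, DICER1 from -0.233 to 0.229, DROSHA from -0.394 to 0.221, NFATC2 from -0.199 to 0.608, TNRC6B from -0.338 to 0.478 and TNRC6C from -0.454 to 0.442. The difference in the DROSHA to DGCR8 ratio ranged from -0.0285 to 0.107 and that in the AGO1 share from -0.739 to 3.17 percentage points. Every other log2 fold change of the 10 genes against control kept its direction in these omissions.

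Counts as low as 88 for TNRC6C limit the precision of the TNRC6 genes in replicate 1.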
